A study of Mus musculus with 6 samples.

Results

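This account covers 41 genes of 2 linked tasks of secretory cells, the modification and crosslinking of collagen and the folding of proteins in the endoplasmic reticulum (ER), in mouse bone marrow stroma. The genes were taken from a named list and matched by symbol. For 39 of the 41 a probe set carried that symbol alone, out of 19938 genes measured in this way, and where a gene had several the brightest over the 6 arrays was used. Fkbp10, a collagen chaperone of the ER, had no probe set listed under its name. Loxl2, a lysyl oxidase, had only 1 probe set shared with another gene, so neither was given a value.

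The cells came from dissociated primary mouse marrow and were sorted as negative for CD45, a leukocyte antigen, and for Ter119, an erythroid antigen, and as positive for CD73, a surface enzyme that makes adenosine. Endoglin, the TGF-beta co-receptor also called CD105, then split them into 2 groups of 3 samples, CD73+CD105- and CD73+CD105+, with 1 array for each sample. Both groups therefore share the CD73 gate and the removal of blood cells. The sources used here do not give strain, age, sex or any treatment of the mice. The labels call the samples biological replicates without saying whether animals were pooled, so the p-values reflect only how far these samples vary. Values are log2 expression from RMA, a background correction, normalization and probe summary, and a difference is the CD73+CD105+ mean less the CD73+CD105- mean on that scale. In bulk samples, fewer cells of a type and less RNA per cell cannot be told apart.

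Fibrillar collagen is built in the ER. Prolyl and lysyl hydroxylases modify the nascent chains, dedicated chaperones hold the triple helix, large COPII carriers take procollagen out of the ER, extracellular proteases trim its ends, and lysyl oxidases crosslink the fibrils. Cells that secrete much matrix, such as chondrocytes, osteoblasts and fibroblasts, rely on general ER chaperones as well. When unfolded protein builds up, 3 sensors in the ER membrane, encoded by Ern1, Eif2ak3 and Atf6, are activated, and the transcription factors Atf6 and Xbp1 then raise the transcription of chaperones through a promoter element called ERSE.

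The promoter elements are shown because they mark the chaperone genes that this response is known to reach. In the RefSeq promoter windows (GRCm38.p6, 250 bases before to 50 after the start site) 31 of the 41 genes had an entry, and Plod2, Bmp1, Lox, Loxl1, Loxl2, Loxl3, Fkbp10, Manf, Atf6 and Creb3l1 had none. The full ERSE, which is CCAAT and CCACG with 9 bases of any kind between them, was searched on both strands and found in 7 of these 31 windows (22.6%) and in 39 of all 32851 windows (0.119%). The list holds chaperone genes that this response is known to reach, so its share with the ERSE was built in. All 7 belong to ER chaperone or disulfide isomerase genes, Hspa5, Hsp90b1, Calr, Canx, Pdia6, Creld2 and Dnajc3, and a match in the letters is not a measured binding site. The 250 bases before the start site of Hspa5, which encodes BiP, the main ER chaperone, read as follows from 5′ to 3′, with the ERSE in capitals (chr2:34771840-34772089, + strand).
Hspa5: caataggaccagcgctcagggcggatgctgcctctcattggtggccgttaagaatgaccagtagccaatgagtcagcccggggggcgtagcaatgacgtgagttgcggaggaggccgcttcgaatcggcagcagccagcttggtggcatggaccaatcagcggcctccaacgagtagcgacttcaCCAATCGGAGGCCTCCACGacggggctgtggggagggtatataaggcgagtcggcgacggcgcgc

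The elements of the other 6 genes are printed in the direction of the gene with up to 20 bases on each side, capitals again marking the match, which reads CGTGG to ATTGG where it lies on the opposite strand. Hsp90b1 had 2 matches, of which the one nearer to the start site is shown.
Hsp90b1, 107 bases before the start site (chr10:86705513-86705571, - strand): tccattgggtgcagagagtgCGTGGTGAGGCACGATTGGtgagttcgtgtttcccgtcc
Calr, 162 bases before the start site (chr8:84847055-84847113, - strand): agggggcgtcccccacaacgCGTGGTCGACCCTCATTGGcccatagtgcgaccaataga
Canx, 145 bases before the start site (chr11:50325780-50325838, - strand): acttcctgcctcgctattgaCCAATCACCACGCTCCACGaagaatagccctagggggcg
Pdia6, 98 bases before the start site (chr12:17266471-17266529, + strand): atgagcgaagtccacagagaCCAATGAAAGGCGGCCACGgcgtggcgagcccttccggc
Creld2, 126 bases before the start site (chr15:88819500-88819558, + strand): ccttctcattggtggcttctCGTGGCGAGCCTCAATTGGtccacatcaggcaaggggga
Dnajc3, 105 bases before the start site (chr14:118937807-118937865, + strand): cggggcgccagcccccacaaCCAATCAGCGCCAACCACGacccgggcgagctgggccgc
The shorter ERSE-II, ATTGG and CCACG with 1 base between them, was found in 1 of the 31 windows, that of Dnajb11, and in 12 of the 32851 (0.0365%).

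No gene of the list passed the test between the populations. Of the 39 measured genes 0 had an adjusted p under 0.05 in limma, while 1.82% of the 19938 genes tested did (1.35% higher and 0.466% lower in CD73+CD105+ cells). At an unadjusted p under 0.05 there were 8 members lower in CD73+CD105+ cells and 0 higher (20.5% of the 39 in either direction, against 17.7% of all genes, 9.09% lower and 8.58% higher). The differences ran from -0.36 for Loxl4 to 0.35 for Loxl1, with a median of -0.06, beside -0.02 over all genes. A difference below 0 was found for 30 of the 39 (76.9%), against 55.6% of all genes. It was also found for 70.8% of 24 other collagen processing genes and 75% of 28 other ER folding and stress genes, described below.

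These small differences had intervals about as narrow as those of most genes. The 95% interval of the difference lay within 2-fold in either direction for all 39 genes, with or without a batch term for replicate 1, and so it did for 97% of all genes. It lay within 1.5-fold for 33 of the 39 (84.6%), where 85.3% of all genes had intervals within 1.5-fold. The 6 whose intervals reached past 1.5-fold were P4ha3, Pcolce, Lox, Loxl1, Loxl4 and Creb3l1. Every member lay above 6.01 in both groups, the 95th percentile of the mean levels of 1194 olfactory and vomeronasal receptor genes taken as silent in marrow, the lowest single value being 7.25 for Ern1. The batch term was run because, gene by gene, the 2 replicate 1 arrays averaged nearly the same as the 4 remaining arrays (SD of the gap 0.0423, against at least 0.122 for the 8 other pairs of a CD73+CD105- with a CD73+CD105+ array), which no label describes. With it 0.507% of all genes passed and again 0 of the 39 members (4 at an unadjusted p under 0.05, all lower, against 12.3% of all genes in either direction and 5.74% lower). Leaving out 1 array moved the difference of 25 of the 39 members by over 1.5 times, none of them among the 8 with an unadjusted p under 0.05. The move is a ratio to the full difference, so differences near 0, such as -0.00077 for Hsp90b1, move readily. The contrast with the 8 is therefore partly built in.

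**Figure D1:**
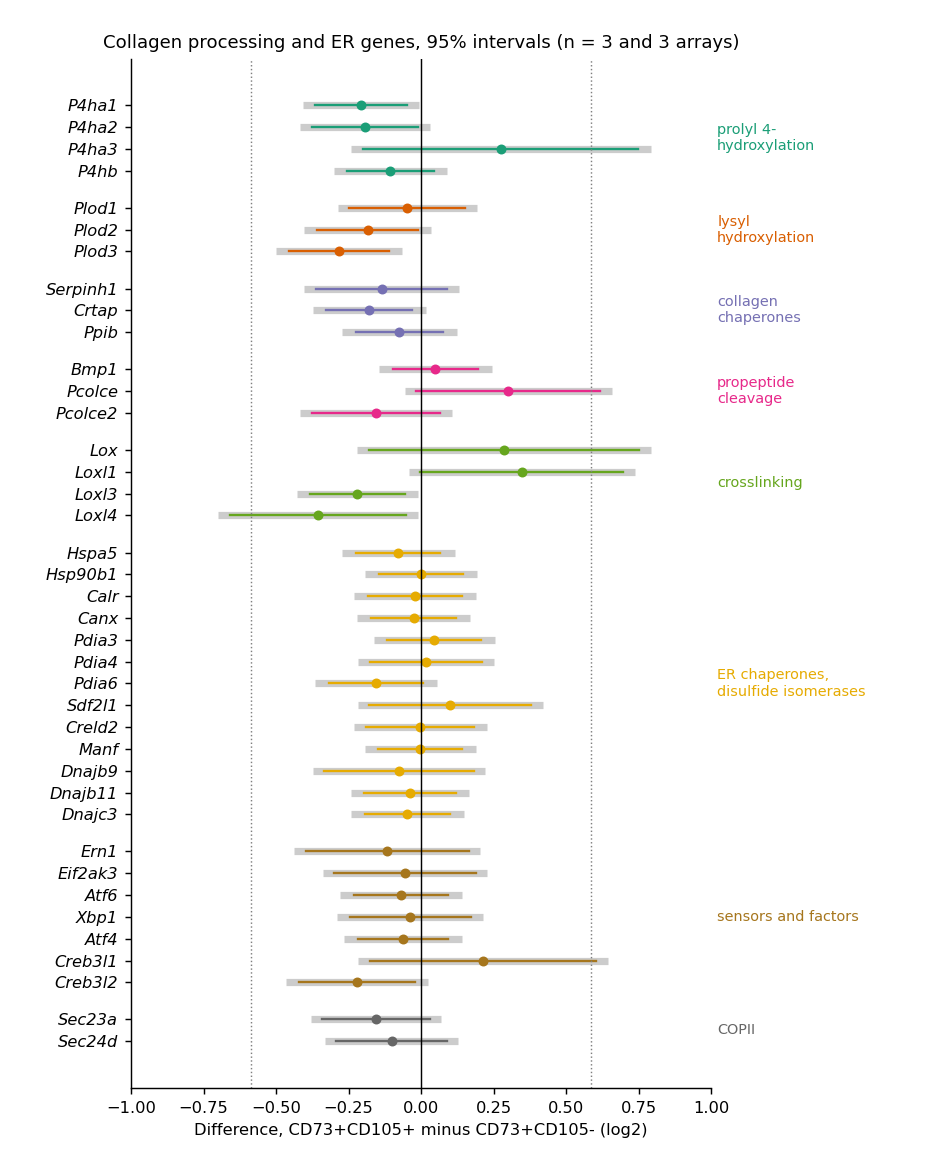
Differences of the 39 measured genes on the log2 scale, CD73+CD105+ minus CD73+CD105- (n = 3 arrays each), grouped by role; points are the estimates, coloured lines the 95% intervals of the limma fit, grey bars the intervals with a batch term for replicate 1, and dotted lines mark 1.5-fold. The estimates lie between -0.36 and 0.35, and the 13 chaperone genes all have intervals inside the dotted lines, as do 85.3% of all genes.

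The ER chaperones stood at nearly the same level in both populations. None of 13 passed, at an adjusted p or at an unadjusted p under 0.05, and their differences lay between -0.16 and 0.10 with a median of -0.02. All 13 intervals lay within 1.5-fold, as 85.3% of all genes did, reaching at most from -0.34 to 0.38. Hspa5 read 12.08, 12.13 and 12.11 on CD73+CD105- replicates 1, 2 and 3 and 12.05, 12.02 and 12.02 on CD73+CD105+ replicates 1, 2 and 3, a difference of -0.08 (SE 0.06, limma adjusted p = 0.554). Its 3 CD73+CD105+ arrays were all below the 3 CD73+CD105- arrays. Hsp90b1, the ER member of the HSP90 family, stood at 12.71, 12.77 and 12.72 against 12.73, 12.72 and 12.74, and its difference of -0.00077 had an interval of -0.15 to 0.14 (adjusted p = 0.996, limma). The 2 groups overlapped for Hsp90b1. Both Hspa5 and Hsp90b1 were bright, and differences of very bright probe sets may be understated on arrays.

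The lectin chaperones and the isomerase that works with them gave the same picture. Calr, calreticulin, averaged 11.87 ± 0.04 on the CD73+CD105- arrays and 11.85 ± 0.07 on the CD73+CD105+ arrays (SD, n = 3 each), and Canx, its membrane-bound relative calnexin, averaged 12.23 ± 0.01 and 12.21 ± 0.04. Pdia3, the disulfide isomerase that binds both of them, differed by 0.04 (95% interval -0.12 to 0.21), and the groups overlapped in all 3 genes. Of the other isomerases, Pdia6 read 11.15, 11.24 and 11.20 on the CD73+CD105- arrays and 11.05, 11.10 and 10.97 on the CD73+CD105+ arrays. The groups did not overlap, and the difference of -0.16 (SE 0.07, limma adjusted p = 0.306) was the largest of the 13 in size. Pdia4 differed by 0.02 on its brighter probe set, while a second, dim probe set gave -0.56 with a wide error (SE 0.43).

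The cochaperones and the small ER proteins known to be induced by unfolded protein differed little as well. Dnajb9, Dnajb11 and Dnajc3, which bring substrates to BiP and govern its ATP cycle, differed by -0.08, -0.04 and -0.05. Creld2 and Manf, secreted proteins of the ER stress response, differed by -0.0026 and -0.0029, each on the other side of 0 when the arrays were centred on their medians (0.0097 and 0.0095). Sdf2l1, a partner of Dnajb11, read 7.92, 7.84 and 7.55 against 7.75, 8.01 and 7.85, with a difference of 0.10 and overlapping groups. The 7 genes with an ERSE in the printed windows had differences between -0.16 and -0.00077 with a median of -0.03.

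**Figure D2:**
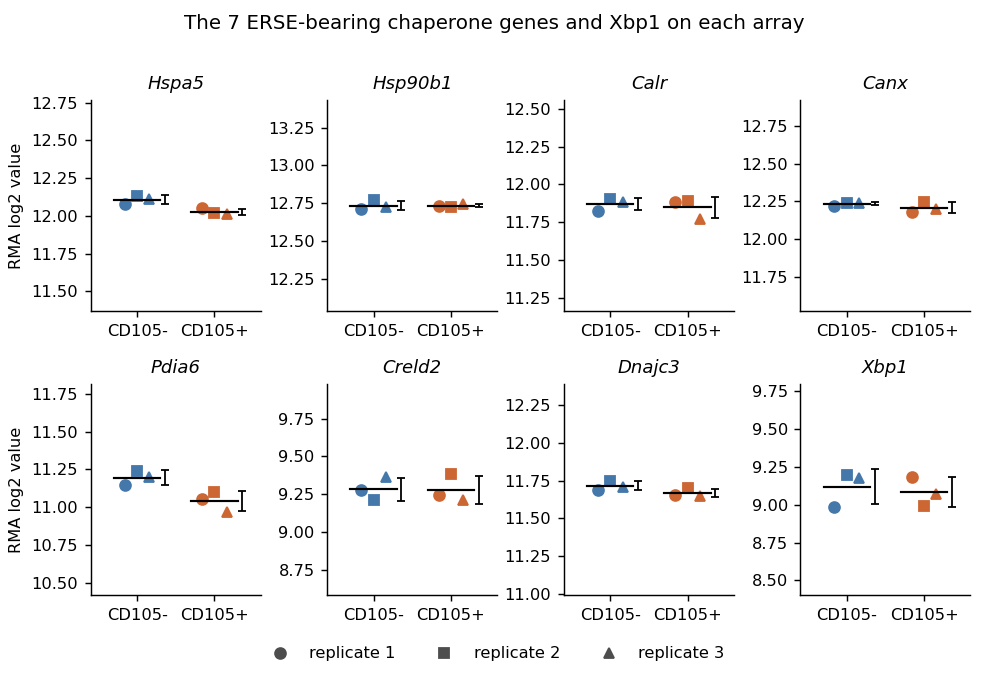
RMA log2 values of the 7 chaperone genes with an ERSE in the promoter window and of Xbp1 on each array (blue CD73+CD105-, orange CD73+CD105+; symbols give the replicate, lines the group means, bars the SD of 3 arrays); every panel spans 1.4 log2 units. Hsp90b1 shows group means that differ by -0.00077, and in Hspa5 and Pdia6 alone of the 8 genes the orange points all lie below the blue ones.

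None of the 7 genes for sensors and transcription factors of ER stress passed. The sensor genes Ern1, Eif2ak3 and Atf6 differed by -0.12, -0.06 and -0.07, with overlapping groups. Xbp1, whose transcript the Ern1 product splices, read 8.99, 9.20 and 9.17 in CD73+CD105- and 9.19, 8.99 and 9.07 in CD73+CD105+ samples, a difference of -0.04 (95% interval -0.25 to 0.17), and the value does not tell spliced from unspliced transcript. Atf4, a factor controlled mainly at translation, was at 10.88 ± 0.04 and 10.82 ± 0.05 (SD, n = 3 each). Transcript levels of sensors do not show their activity, which rests on splicing, phosphorylation and cleavage.

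The 2 membrane-bound factors of skeletal secretory cells lay on opposite sides of 0. Creb3l1, known from osteoblasts, read 9.02, 8.99 and 9.45 on the CD73+CD105- and 9.50, 9.07 and 9.53 on the CD73+CD105+ arrays, with a difference of 0.21 (SE 0.17, limma adjusted p = 0.554). The groups overlapped, since CD73+CD105- replicate 3 stood higher than CD73+CD105+ replicate 2. The difference was 0.48 in replicate 1 and 0.08 in replicates 2 and 3, and with 1 array left out it ran from 0.13, without CD73+CD105+ replicate 3, to 0.36. Creb3l2, known from chondrocytes, read 8.83, 8.78 and 8.63 against 8.44, 8.62 and 8.51, without overlap, and differed by -0.22 (SE 0.09, limma adjusted p = 0.246), or adjusted p = 0.45 with the batch term (0.0677 to 0.761 over all alternatives). Sec23a and Sec24d, inner coat subunits of the carriers that move procollagen, differed by -0.16 and -0.10, or -0.10 and -0.04 without CD73+CD105- replicate 3. The Sec23a arrays read 9.97, 9.94 and 10.13 against 9.81, 9.94 and 9.82 and met at 9.94 without overlap (adjusted p = 0.359, limma). Creb3l2 is known to drive Sec23a, but whether it had a part in this difference was not tested.

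Among the hydroxylases, 6 of 7 lay below 0 and 4 of the 7 had an unadjusted p under 0.05, all lower in CD73+CD105+ cells, where 9.09% of all genes were lower at that level (2 with the batch term, where 5.74% of all genes were); 0 passed after adjustment. Plod3, a lysyl hydroxylase that also adds sugars to hydroxylysine, read 9.60, 9.67 and 9.49 on the CD73+CD105- arrays and 9.29, 9.35 and 9.28 on the CD73+CD105+ arrays. All 3 CD73+CD105+ values lay below all 3 CD73+CD105- values. Its difference of -0.28 (SE 0.07, 1.22-fold lower, 95% interval -0.46 to -0.11) had the smallest adjusted p of the list, 0.111 in limma, and 0.285 with the batch term (0.0371 to 0.551 over all alternatives). It was -0.31 in replicate 1 and -0.27 in replicates 2 and 3.

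Plod2, which hydroxylates the lysines of collagen telopeptides, stood at 12.26, 12.36 and 12.19 against 12.05, 12.15 and 12.06. The CD73+CD105+ values were again all lower, with a difference of -0.18 (SE 0.07, limma adjusted p = 0.26). Plod1, which acts on lysines of the helix, differed by -0.05 and its groups overlapped. P4ha1, the main catalytic subunit of prolyl 4-hydroxylase, read 11.20, 11.28 and 11.32 in CD73+CD105- and 11.06, 11.10 and 11.02 in CD73+CD105+ cells, and differed by -0.21 (SE 0.07, limma adjusted p = 0.176). P4ha2, a second catalytic subunit, read 10.85, 10.83 and 11.01 against 10.69, 10.77 and 10.65, with a difference of -0.19 (SE 0.08). In both genes, and in P4hb, the shared beta subunit at 11.79 ± 0.04 and 11.69 ± 0.01 (SD, n = 3 each), the groups did not overlap. P4ha3, the third catalytic subunit, was the exception, at 7.85, 8.48 and 8.33 against 8.83, 8.23 and 8.44. Its difference of 0.27 was 0.97 in replicate 1 but -0.07 in replicates 2 and 3, so it rested on the replicate 1 arrays.

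Groups that do not overlap were found for 14 of the 39 members, 13 with the CD73+CD105+ arrays lower (33.3%) and 1 with them higher, against 12.9% and 10.7% of all genes (23.7% in either direction). Of the 13, 9 encode collagen enzymes or their helpers, and the rest were Hspa5, Pdia6, Creb3l2 and Sec23a.

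**Figure D3:**
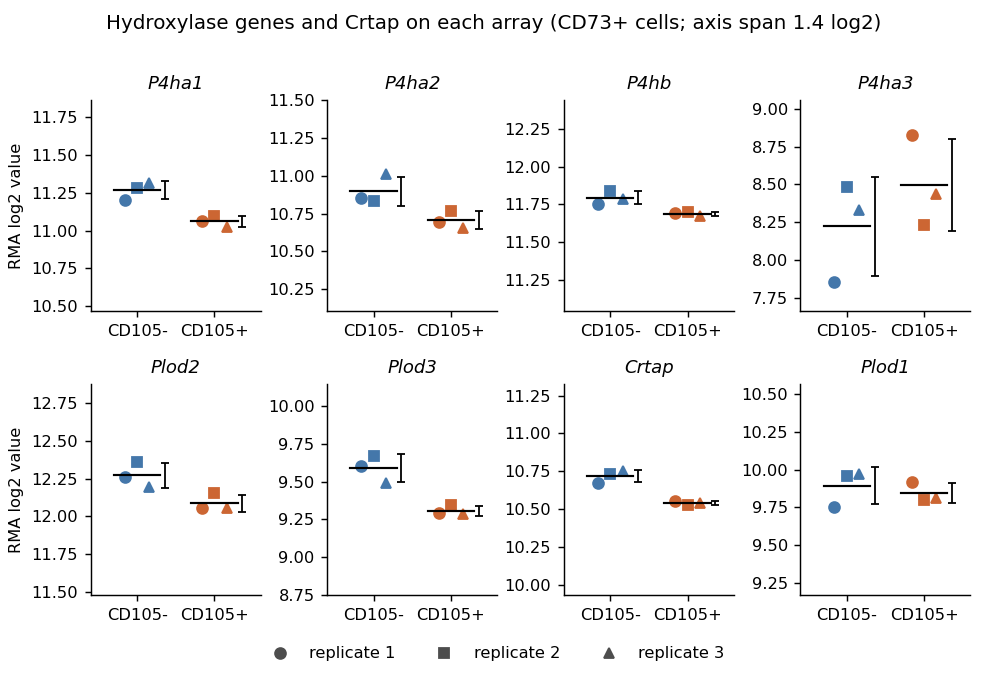
RMA log2 values of the hydroxylase genes and Crtap on each array (blue CD73+CD105-, orange CD73+CD105+; symbols give the replicate, lines the group means, bars the SD of 3 arrays); every panel spans 1.4 log2 units. The groups do not overlap in P4ha1, P4ha2, P4hb, Plod2, Plod3 and Crtap, while in P4ha3 the replicate 1 arrays stand furthest apart.

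The collagen chaperones followed with small differences. Serpinh1, the chaperone that binds the folded procollagen helix, averaged 11.47 ± 0.06 on the CD73+CD105- arrays and 11.34 ± 0.16 on the CD73+CD105+ arrays (SD, n = 3 each), a difference of -0.14 with overlapping groups, which was -0.05 without CD73+CD105+ replicate 3. Crtap, a scaffold of the prolyl 3-hydroxylation complex, read 10.67, 10.73 and 10.75 against 10.55, 10.53 and 10.54. Its difference of -0.18 (SE 0.06, limma adjusted p = 0.209) was small, but each CD73+CD105+ array was lower than every CD73+CD105- array. Ppib, the cyclophilin of that complex, differed by -0.08.

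The genes that act outside the cell were split in direction, and the oxidases had the largest spread between arrays of the 8 roles (median SD 0.19 in CD73+CD105- and 0.22 in CD73+CD105+ samples). Loxl1, a lysyl oxidase of elastic fibres, read 8.82, 8.74 and 9.20 on the CD73+CD105- and 9.41, 9.04 and 9.36 on the CD73+CD105+ arrays. Its difference of 0.35 (1.27-fold higher, SE 0.15) did not pass (limma adjusted p = 0.287), and CD73+CD105- replicate 3 stood above CD73+CD105+ replicate 2. It was 0.59 in replicate 1 and 0.22 in replicates 2 and 3. Lox, the main crosslinking enzyme of collagen, read 9.98, 9.64 and 10.30 against 10.35, 9.93 and 10.49, a difference of 0.29 (SE 0.20, limma adjusted p = 0.504) with overlapping groups. Without CD73+CD105- replicate 2 or CD73+CD105+ replicate 3 the Lox difference was 0.12 or 0.17, and without CD73+CD105- replicate 3 or CD73+CD105+ replicate 2 it was 0.45 in each case. Pcolce, which speeds the cleavage of the procollagen carboxyl end, read 11.82, 11.67 and 12.14 against 12.21, 12.01 and 12.31, with a difference of 0.30 (SE 0.13, limma adjusted p = 0.307), or 0.20 without CD73+CD105- replicate 2.

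These 3 genes and Creb3l1 shared the order of their arrays: replicate 3 was the highest CD73+CD105- array and replicate 2 the lowest of both groups in each of them, and in Lox, Pcolce and Creb3l1 replicate 3 was also the highest CD73+CD105+ array. The CD73+CD105- arrays alone spanned 0.66 in Lox, more than the difference between the groups. Col1a1, the chain of type I collagen these enzymes work on, read 11.33, 10.95 and 11.67 against 11.58, 11.31 and 11.86 and differed by 0.27 (adjusted p = 0.544, limma).

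The remaining oxidases lay below 0. Loxl3 read 10.93, 10.94 and 10.94 on the CD73+CD105- arrays and 10.71, 10.79 and 10.64 on the CD73+CD105+ arrays. The CD73+CD105- arrays spanned 0.012, and the difference of -0.22 (SE 0.07) had an adjusted p of 0.166 in limma and 0.38 with the batch term (0.0721 to 0.599 over all alternatives). Loxl4 read 10.48, 10.64 and 10.38 against 10.14, 10.37 and 9.91, the lowest CD73+CD105- and the highest CD73+CD105+ array nearly touching. It had the lowest difference of the list, -0.36 (1.28-fold lower, SE 0.13, limma adjusted p = 0.221), and its second probe set gave -0.25 (SE 0.11). Bmp1, the protease that removes the carboxyl propeptide, was at 9.25 ± 0.02 and 9.30 ± 0.03 (SD, n = 3 each). It was the 1 member with all CD73+CD105+ arrays higher, by 0.05. Pcolce2, a second enhancer of that cleavage, differed by -0.16 with overlapping groups, or by -0.08 without CD73+CD105+ replicate 3.

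**Figure D4:**
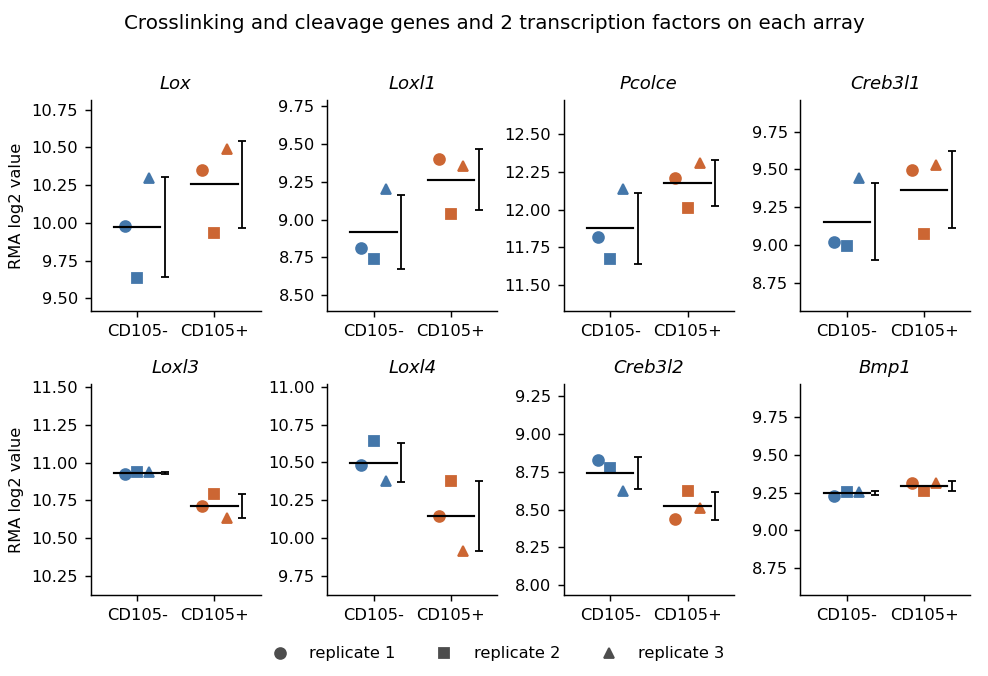
RMA log2 values of crosslinking and cleavage genes and of Creb3l1 and Creb3l2 on each array (blue CD73+CD105-, orange CD73+CD105+; symbols give the replicate, lines the group means, bars the SD of 3 arrays); every panel spans 1.4 log2 units. In Lox, Loxl1, Pcolce and Creb3l1 the square of replicate 2 is the lowest point of each group and the groups overlap, whereas in Loxl3, Loxl4 and Creb3l2 they do not.

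Other genes of the same pathways were read from further lists. Of 24 measured genes for collagen modification, cleavage and export, 0 passed in limma, and the median difference was -0.12. At an unadjusted p under 0.05, 5 were lower (20.8%) and 1 was higher, against 9.09% and 8.58% of all genes. The 2 with the greatest differences were Colgalt2, a collagen galactosyltransferase, at -0.56 (adjusted p = 0.339, limma) and P3h4, a partner of lysyl hydroxylase, at -0.50 (adjusted p = 0.0701, limma). P3h4 read 9.73, 9.60 and 9.48 against 8.97, 9.28 and 9.05, without overlap. Of 14 fibril-forming and associated collagen chains 0 passed, with Col14a1 at 0.54 and Col9a2 at -0.49 furthest from 0. At an unadjusted p under 0.05, 6 of these chains were lower (42.9%) and 1 was higher, again beside 9.09% and 8.58% of all genes. Col2a1 and Col11a2, chains of cartilage fibrils, differed by -0.26 and -0.43, and Col3a1, of fibrous tissue, by 0.39.

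Of 28 further ER folding and stress genes 1 fell and 0 rose after adjustment, and the list median was -0.09. At an unadjusted p under 0.05, 7 were lower (25%) and 1 was higher, against 9.09% and 8.58% of all genes. The higher one was Hspa13, at 0.28 (adjusted p = 0.147, limma) without overlap of the groups. Asns, the asparagine synthetase that Atf4 is known to induce, read 9.66, 9.56 and 9.84 on the CD73+CD105- arrays and 8.95, 9.14 and 9.16 on the CD73+CD105+ arrays. It fell by 0.61 (SE 0.10, 1.52-fold, limma adjusted p = 0.0331), with every CD73+CD105+ array below every CD73+CD105- array. With the batch term its adjusted p was 0.0862 (0.0118 to 0.342 over all alternatives), and with any 1 of the 6 arrays left out it did not pass. Atf3, a stress-induced transcription factor gene, was next in size at -0.35 (adjusted p = 0.257, limma). It also belongs to the 9 dissociation response genes given below, all of which had differences below 0. Chac1, a glutathione-degrading enzyme that is also a target of Atf4, had the next smallest adjusted p, 0.0792 in limma, with a difference of -0.34; it is named after its values were seen. The Asns window is shown because its match to the Atf4-type element (capitals; TGATG and AA with 1 base between them), a sequence known to bind Atf4, lies next to the start site, which cuts the 3′ side short.
Asns, 23 bases before the start site (chr6:7693210-7693252, - strand): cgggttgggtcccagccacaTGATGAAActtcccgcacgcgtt
The element was in 6 of 25 of these genes with a promoter entry (24%), in 0 of the 31 genes of the main list with an entry and in 1219 of all 27025 genes (4.51%), either strand counted. The 6 were Asns, Atf3, Chac1, Herpud1, Trib3 and Txndc5, with differences of -0.61, -0.35, -0.34, -0.25, -0.04 and -0.30. The list of further ER genes was drawn up with known Atf4 targets in it, so its share with the element was built in. Of its 28 measured genes 21 (75%) were below 0, so the sign alone was not particular to the 6. All of the 6 except Trib3 were among the 7 genes lower at an unadjusted p under 0.05, beside Sdf2 and Uggt1. Whether the element had a part in the differences was not tested. Ddit3, another gene downstream of Atf4, differed by -0.28 (adjusted p = 0.327, limma). Sesn2 and Ppp1r15a, stress genes of the same list, differed by only -0.07 and -0.03 (adjusted p = 0.817 and 0.881, limma). The activity of Atf4 was not tested.

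**Figure D5:**
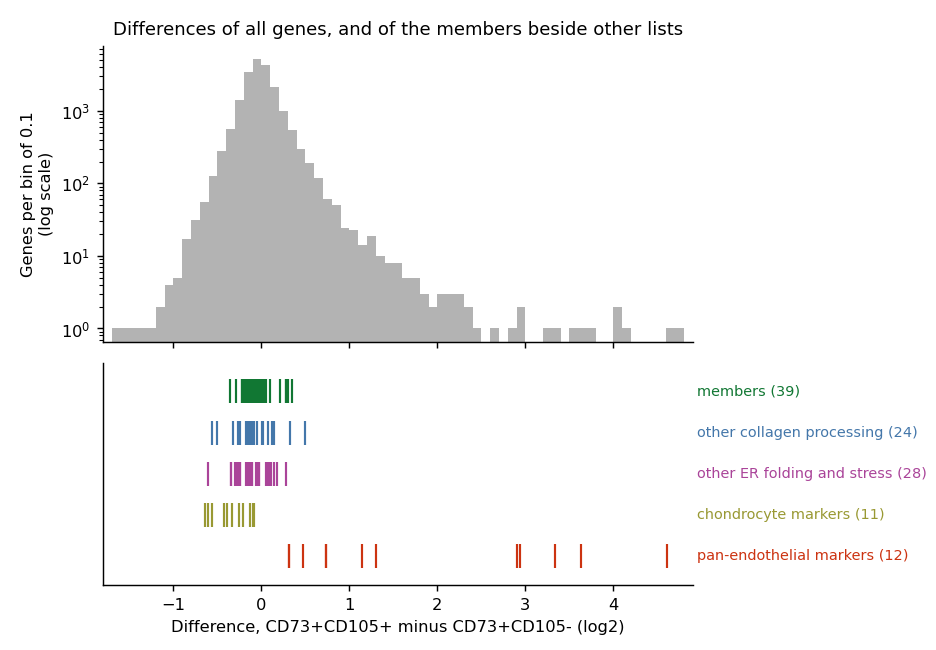
The upper panel counts all 19938 genes by difference in bins of 0.1 log2 (log count axis), and the lower panel marks each gene of 5 lists on the same axis, CD73+CD105+ minus CD73+CD105-. The 39 members lie between -0.36 and 0.35, while pan-endothelial markers reach 4.61 and chondrocyte markers all lie below 0.

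Some lists of cell type markers differed between the same arrays, and others did not. Eng, which encodes CD105, was at 6.30 ± 0.21 and 8.06 ± 0.25 (SD, n = 3 each), Nt5e, which encodes CD73, at 10.63 ± 0.12 and 10.37 ± 0.08, and Ptprc, which encodes CD45, at 4.71 ± 0.05 and 4.70 ± 0.06, below the receptor gene percentile. Of 12 pan-endothelial markers 9 rose (7 with the batch term), and the list mean lay at 6.16 to 6.43 on the CD73+CD105- and 8.05 to 8.30 on the CD73+CD105+ arrays. Of 7 reticular stroma markers 6 rose (2 with the batch term) and Foxc1 differed by -0.17 (adjusted p = 0.364, limma), with list means of 7.91 to 8.28 on the CD73+CD105- and 8.94 to 9.16 on the CD73+CD105+ arrays. Of 11 chondrocyte markers 1 fell, Sox6 (0 with the batch term), all 11 differences were below 0 (median -0.33), and the list mean lay at 11.27 to 11.44 on the CD73+CD105- and 10.80 to 11.16 on the CD73+CD105+ arrays. The chondrocyte list thus lay below 0, as did most hydroxylases, Loxl3, Loxl4 and Creb3l2. The endothelial list and the reticular list other than Foxc1 lay above 0, as did Lox, Loxl1 and Pcolce. These pairings rest on sign alone. In the reticular markers Cxcl12 and Adipoq replicate 2 was the highest and replicate 3 the lowest array of each group. Lox and Pcolce had the reverse order. Adipoq read 8.36 and 7.51 on these CD73+CD105- arrays and 9.47 and 9.07 on these CD73+CD105+ arrays. In Emcn, an endothelial marker, replicate 2 was the lowest of each group, as in Lox, Loxl1 and Pcolce. Other genes of the 2 lists kept neither order in both groups. The part of these lists in the members' differences was not tested. None passed in limma of 6 osteoblast markers (list means of 9.33 to 9.54 on the CD73+CD105- and 9.37 to 9.52 on the CD73+CD105+ arrays), of 9 dissociation response genes (all 9 differences below 0, median -0.21; 10.87 to 11.17 on the CD73+CD105- and 10.59 to 10.89 on the CD73+CD105+ arrays), of 7 plasma cell and B lineage markers (5.53 to 5.64 on the CD73+CD105- and 5.53 to 5.65 on the CD73+CD105+ arrays, 3 of them below the receptor gene percentile in both groups), of 4 megakaryocyte markers (5.28 to 5.38 on the CD73+CD105- and 5.33 to 5.60 on the CD73+CD105+ arrays) or for the 1 measured erythroid gene, Klf1 (difference -0.008). At an unadjusted p under 0.05 these 5 lists held 2, 2, 2, 1 and 0 genes in either direction (33.3%, 22.2%, 28.6%, 25% and 0%), against 17.7% of all genes.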

How the data were processed

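Total RNA from sorted mouse marrow cells carried a biotin label and was read on 1-colour arrays, 3 samples per group, per the labels. The deposited values are log2 expression per probe set (35556 on each array), which the authors made with RMA, per the submitters' processing notes; the sources used here give no software version, annotation or build. Array medians were 6.27 to 6.35. RMA compresses differences near background, and array signals flatten near the top of the range, so differences of very dim or very bright probe sets may be understated. Only probe sets with 1 gene symbol in the platform annotation were used (21789), the one with the highest mean over the 6 arrays per gene, which gave 19938 genes with no filter on dim genes.

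Groups and replicate numbers came from the sample titles. Differences were tested with limma 3.58.1 under R 4.3.3 (two-sided, lmFit then eBayes) without a block, adjusted by Benjamini-Hochberg over all 19938 genes with a threshold of 0.05; intervals are 95% and use the moderated error. Precision is limited by the number of arrays. The test was tried on simulated data first. The members and lists were chosen with earlier results of these data known. The text names every member and, from each further pathway list, up to 4 genes past the threshold with the largest differences, or the 2 with the largest differences where fewer than 2 passed; other genes of these lists are named as examples. The alternatives were the replicate number as a block, a batch term for replicate 1, arrays or replicate numbers left out, filters on dim genes, the mean of all probe sets, median centring, a repeated quantile normalization, a variance trend and array weights. Promoter windows are RefSeq's (GRCm38.p6), matched by symbol.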

Additional observations from a re-analysis of the deposited data

How the results depend on the processing

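The count of 0 members past the threshold held under every alternative tried except array weights, where 1 passed, Plod3 at -0.30 (limma adjusted p = 0.0371). Otherwise the lowest adjusted p of any member under an alternative was 0.0925, for Plod3 without CD73+CD105- replicate 3. Array weights also called 1331 of all genes, 1 of the other collagen processing genes and 3 of the other ER genes. The replicate number as a block called 215 of all genes, 0 members and 0 of the other ER genes. It called 8 of the pan-endothelial, 5 of the reticular and 0 of the chondrocyte markers, without Tie1, Ebf3 and Sox6. No label says that the replicate numbers pair samples, so the main fit had no block. Same-numbered arrays had correlations of -0.88, 0.0066 and 0.10 between their deviations from the group means. These values cannot decide on pairing. The balance of the replicate 1 arrays with the remaining arrays forces their deviations to be nearly opposite. The batch term for replicate 1 called 101 genes and 0 of the other ER genes. Leaving out arrays or replicate numbers gave 29 to 293 genes, and 0 members and 0 of the other ER genes each time, so Asns did not pass with any 1 array left out; the fewest, 29, came without replicate 1, and 86 and 87 without CD73+CD105+ replicate 1 or CD73+CD105- replicate 1. The members' median stayed between -0.09 and -0.04.

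Of the 39 members, 27 kept their sign throughout, and none of the 12 others was past the threshold in any setting. With array weights the sign turned for Plod1 (0.0286), Hsp90b1 (0.00458), Calr (0.00601), Sdf2l1 (-0.0114), Dnajb9 (0.0172), Eif2ak3 (0.00334) and Xbp1 (0.048). Centring on medians turned Hsp90b1 (0.0116), Creld2 (0.00971) and Manf (0.00947), a repeated quantile normalization turned Manf (4.54e-05), and the mean of its probe sets turned Pdia4 (-0.272). With arrays left out the differences ran from -0.0749 to 0.538 for P4ha3, -0.156 to 0.00711 for Plod1, -0.013 to 0.021 for Hsp90b1, -0.0636 to 0.0241 for Calr, -0.0688 to 0.105 for Pdia4, -0.0127 to 0.237 for Sdf2l1, -0.0908 to 0.0716 for Creld2, -0.0133 to 0.00974 for Manf, -0.218 to 0.065 for Dnajb9, -0.224 to 0.0123 for Ern1, -0.126 to 0.0559 for Eif2ak3 and -0.156 to 0.0474 for Xbp1. The cause of these shifts was not tested.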
